A study of Mus musculus with 12 samples.

Results

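Kruppel-like factors (KLFs) are transcription factors with zinc fingers that bind GC-rich and CACCC sequences. 10 of their genes were followed here in the RNA of hippocampal slices after chemical long-term potentiation (LTP): Klf2, Klf3, Klf4, Klf5, Klf6, Klf7, Klf9, Klf10, Klf13 and Klf15. They were chosen with earlier results of these data known, were taken by symbol, and make up 10 of the 41091 gene IDs in each of the deposited count tables. The slices came from wild type C57BL/6 mice 2 to 3 months old, male per the study's methods, and their dentate gyrus had been trimmed. Forskolin, a drug that raises cAMP, was given to LTP slices at 50 uM for 5 min, and then with 30 mM KCl and 10 mM calcium for a further 5 min. Control slices received the 0.2% DMSO vehicle over the same 10 min. Slices were frozen 1 hr or 3 hr later, which gave 4 groups of 3 libraries. Each animal supplied LTP and control slices at its time point, a library pools several slices of 1 animal, and the 2 times are treated here as separate sets of animals. The study set 1 hr control replicate 2 aside as an outlier of its clustering, and it was left out of the fits here. Its values are given beside the others.

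The family is usually divided by the partners of its proteins. KLF2, KLF4, KLF5, KLF6 and KLF7 act mostly as activators. KLF9, KLF10 and KLF13 recruit the Sin3A corepressor, KLF3 recruits the corepressor CtBP, and KLF15 stands outside these classes. In the brain Klf4 and Klf9 are known to limit axon growth, Klf6 and Klf7 to promote it, and Klf9 is a classical target of glucocorticoid and thyroid hormone. Klf2 and Klf4 are best known from blood vessels, where the kinase ERK5 and the factor MEF2 induce them.

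The promoters of the 3 members that rose after LTP are shown first. Each is the 250 bases before the gene's start in RefSeq (GRCm38.p6), on the strand of the gene. Capitals mark the short form of the cAMP response element (short CRE, TGACG on either strand), which CREB can bind, and the MEF2 site.
Klf2, chr8:72318812-72319061, plus strand: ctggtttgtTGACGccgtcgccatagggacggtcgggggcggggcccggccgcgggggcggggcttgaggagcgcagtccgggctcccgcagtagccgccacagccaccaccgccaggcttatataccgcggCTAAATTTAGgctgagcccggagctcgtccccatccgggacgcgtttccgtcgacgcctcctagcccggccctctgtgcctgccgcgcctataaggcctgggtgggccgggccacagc
Klf4, chr4:55532476-55532725, minus strand: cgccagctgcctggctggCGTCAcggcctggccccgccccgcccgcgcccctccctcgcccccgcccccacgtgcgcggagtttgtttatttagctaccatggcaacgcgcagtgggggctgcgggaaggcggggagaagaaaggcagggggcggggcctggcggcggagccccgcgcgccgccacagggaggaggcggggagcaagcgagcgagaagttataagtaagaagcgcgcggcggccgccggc
Klf6, chr13:5861239-5861488, plus strand: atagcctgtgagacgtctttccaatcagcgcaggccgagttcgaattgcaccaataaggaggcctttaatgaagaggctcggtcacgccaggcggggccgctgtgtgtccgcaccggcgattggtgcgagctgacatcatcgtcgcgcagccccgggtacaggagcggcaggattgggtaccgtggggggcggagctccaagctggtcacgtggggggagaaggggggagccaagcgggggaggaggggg

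The Klf2 window held a short CRE from 241 to 237 bases upstream of the start and a MEF2 site, CTAAATTTAG, from 118 to 109 bases upstream. The Klf4 window held a short CRE on the opposite strand, from 232 to 228 bases upstream, and no MEF2 site. The Klf6 window held neither. GC content was 71.2%, 74% and 64.8% in Klf2, Klf4 and Klf6. Windows were found for 8 of the 10 members, and Klf5 and Klf10 had none. Both strands were searched for 6 motifs. The full CRE (TGACGTCA, which contains the short form) and the CArG box of serum response factor were absent from all 8 windows, so these letters do not occur there. A short CRE was also present in the windows of Klf9, Klf13 and Klf15, which were not called after LTP. Of 32851 promoter windows of the same length, 17.8% held the short CRE, 1.55% the full CRE, 1.47% a CArG box and 2.92% a MEF2 site. The GC box GGGCGG, the kind of site that KLF and Sp proteins bind, occurred 2 times in Klf2, 4 times in Klf4, 1 time each in Klf6, Klf7 and Klf15, 3 times in Klf13 and 6 times in Klf3, and was absent from the Klf9 window. So 7 of the 8 windows held it, against 32.7% of all windows. The short CRE was in 5 of the 8 windows, the MEF2 site in 1 and CACCC in 6, the last against 52% of all windows. The member windows had from 59.2% GC in Klf7 to 78.4% in Klf3. The shares over all windows were not matched for GC content, on which such matches depend. A match describes the sequence and is no evidence of binding.

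The members are protein-coding genes on 10 chromosomes, with positions from GENCODE M21 on GRCm38. The 4 that were called with LTP are Klf2 (chr8:72319033-72321656, plus strand, 1847 exonic bases), Klf4 (chr4:55527143-55532466, minus strand, 3049 bases), Klf6 (chr13:5861482-5870394, plus strand, 4391 bases) and Klf10 (chr15:38291463-38300706, minus strand, 4179 bases). Klf7 lies at chr1:64029447-64122282, minus strand, Klf9 at chr19:23141226-23168134, plus strand and Klf13 at chr7:63886351-63938915, minus strand. Klf3 lies at chr5:64803388-64832901, plus strand, Klf5 at chr14:99298691-99315036, plus strand and Klf15 at chr6:90462576-90475238, plus strand. Counts were summed over a gene, so exons and introns or transcript variants cannot be separated. All but Klf3 and Klf7 share no exonic bases with another annotated gene.

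Library totals ran from 37118382 to 50815001 counts, so that 3 counts, used as the floor, equal 0.0585 to 0.0786 CPM (counts scaled to library size, with TMM factors). All 10 members were above it in every library and passed the filter on low counts. RPKM, CPM per kilobase of exon, covered a wide range. The study states that it analysed expression from coding-region reads alone, while the deposited tables also list non-coding genes, so the bases over which the counts were made are not settled. If only coding regions were counted, RPKM over exons is too low for members with long untranslated regions, and the order of members given here may not hold. Klf9 had the highest level, with a median of 65.8 RPKM over the 12 libraries (range 56.3 to 77.8), followed by Klf6 at 36.4 (28.8 to 46.8). Klf13 at 18.6 RPKM (14.6 to 28.4) and Klf10 at 17.3 (13.6 to 22.2) overlapped. So did Klf4 at 7.07 (4.23 to 15.5), Klf15 at 6.30 (5.41 to 7.77) and Klf7 at 5.32 (4.82 to 7.04), and 1 Klf4 library, 3 hr LTP replicate 3, reached into the range of Klf10 and Klf13. Klf2 lay lower at 2.94 (1.60 to 4.98), with its highest library above the lowest of Klf7 and Klf4. Klf3, which overlapped the lowest Klf2 libraries, had 1.72 (1.3 to 2.0), and Klf5 had the lowest level of the members, 0.350 RPKM (0.230 to 0.494), from 55 to 112 counts per library. Comparisons of 1 gene between libraries do not depend on its length. CPM is used below to compare a gene between libraries.

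**Figure D1:**
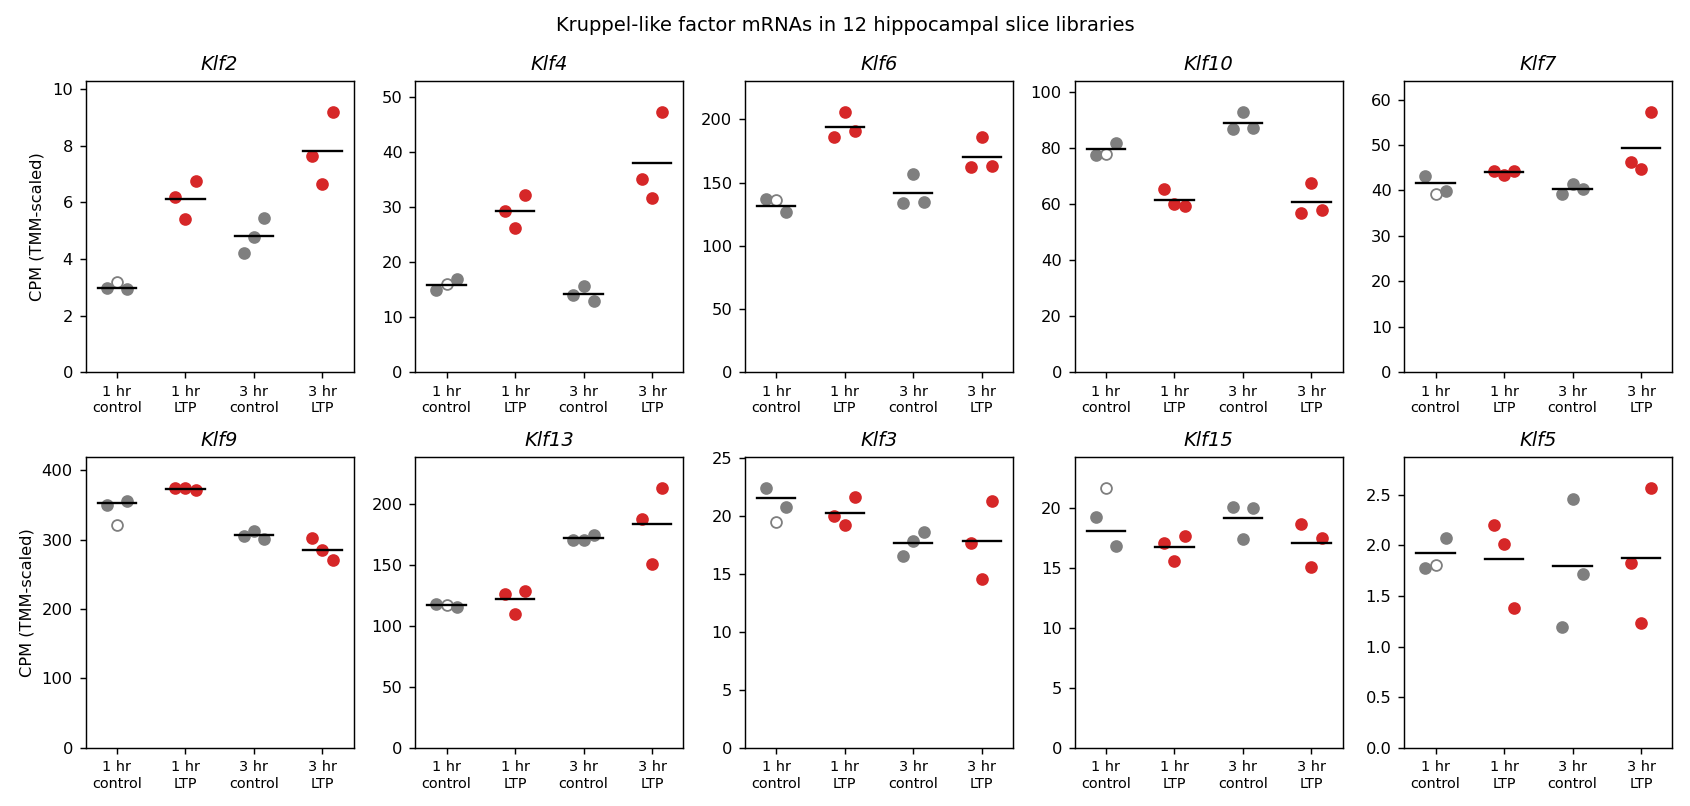
CPM (TMM-scaled) of the 10 Kruppel-like factors in 12 libraries, 1 panel a gene, with the y axis from 0. Grey points are control slices, red points LTP slices, the open circle is 1 hr control replicate 2, and the line is the mean without it. LTP points lie above the control points of their time in Klf2, Klf4, Klf6 and Klf7, in Klf7 at 1 hr by a narrow margin, and below them in Klf10. In Klf9 they lie above at 1 hr only.

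LTP was compared with control slices at each time point to ask which members responded. At both times Klf2, Klf4 and Klf6 rose and Klf10 fell, while the other 6 members were not called. A call was an adjusted p under 0.1 with a fold change over 1.2 in the quasi-likelihood test of edgeR, adjusted over all genes by Benjamini-Hochberg. At 1 hr, 3 of the 10 members were called higher, against 0.778% of the 17736 genes tested, and 1 lower, against 0.0113%. At 3 hr, 3 were called higher, against 5.07% of 17508 genes, and 1 lower, against 1.53%. By class, 3 of the 5 activators rose at each time and 1 of the 3 Sin3A-recruiting members fell. The members were chosen with earlier results known, so these counts are no test of the family. Of the other KLF genes, 4 were tested at each time and 0 were called, as given below. The median log2 fold change of the members was 0.08 at 1 hr and 0.10 at 3 hr, against 0 over all genes tested at both times. In tissue RNA of this kind, fewer cells of a type and less RNA per cell cannot be told apart.

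Klf4, which encodes a factor known from vessels, from stem cell reprogramming and as a brake on axon growth, had 14.8 and 16.8 CPM in 1 hr control replicates 1 and 3 and 16 in the library set aside. The 1 hr LTP replicates had 29.3, 26.3 and 32.3 CPM. All LTP libraries lay above all controls, and the means were 15.8 ± 1.41 (SD, n = 2) and 29.3 ± 3.00 (n = 3). By edgeR the log2 fold change was 0.90 (SE 0.104, adjusted p = 0.000276), a 1.86-fold rise. The ratio of LTP to control slices of the same animal was 0.98, 0.71 and 0.93 on the log2 scale in animals 1, 2 and 3. At 3 hr Klf4 had 14.0, 15.6 and 12.9 CPM in controls and 35.1, 31.6 and 47.2 CPM after LTP. The rise was 2.72-fold (log2 1.44, SE 0.15, adjusted p = 0.00278 by edgeR), with per-animal log2 ratios of 1.32, 1.01 and 1.87. LTP replicate 3 was the highest library. Without it the log2 fold change was 1.24, and the call held in all alternatives tried at both times.

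Klf2, which encodes a factor that acts beside KLF4 in vessels, had 2.99 and 2.95 CPM in the 1 hr controls and 3.20 in the library set aside. It had 6.2, 5.41 and 6.77 CPM after LTP. This was the largest log2 fold change among the members at 1 hr, 1.06 (SE 0.162, adjusted p = 0.00395 by edgeR, 2.08-fold). It rested on 116 to 289 counts per library, and the LTP and control ranges were far apart. Klf2 was higher in the 3 hr controls, at 4.22, 4.79 and 5.46 CPM, and reached 7.65, 6.65 and 9.19 CPM in 3 hr LTP slices. The 3 hr rise was 1.64-fold (log2 0.72, SE 0.148, adjusted p = 0.0365 by edgeR). The rise was seen in all 6 pairs of slices from 1 animal, by 1.03, 0.74 and 1.17 on the log2 scale at 1 hr and by 0.84, 0.47 and 0.74 at 3 hr. The 3 hr call was lost without control replicate 1 (0.63, adjusted p = 0.154), control replicate 2 (0.71, 0.171) or LTP replicate 1 (0.73, 0.127), with the direction kept.

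Klf6, an activator linked to axon growth and injury responses, had the highest RPKM of the members that rose. At 1 hr it had 137 and 127 CPM in controls, 136 in the library set aside, and 186, 206 and 191 CPM after LTP. The groups did not overlap, and the rise was 1.49-fold (log2 0.57, SE 0.0736, adjusted p = 0.000814 by edgeR). At 3 hr the controls had 134, 157 and 135 CPM and the LTP slices 163, 186 and 163. The lowest LTP library was above the highest control by a small margin. Here the rise was 1.22-fold, just past the fold minimum (log2 0.29, SE 0.0804, adjusted p = 0.091). Within animals the 3 hr ratios were alike, at 0.28, 0.25 and 0.27 on the log2 scale, and smaller than the 1 hr ratios of 0.44, 0.59 and 0.59. The 3 hr call was lost with total counts as the scaling (0.27, adjusted p = 0.117) and in 5 of the 6 fits that left out 1 library, where the log2 value stayed between 0.23 and 0.36. It held without LTP replicate 3.

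Klf10, known as TIEG1 and as an early target of TGF-beta, was the only member that fell with LTP. It had 77.5 and 81.6 CPM in the 1 hr controls, 77.8 in the library set aside, and 65.3, 60.0 and 59.1 CPM after LTP. All 3 LTP libraries were below all controls. The log2 fold change was -0.36 (SE 0.0741, adjusted p = 0.0422 by edgeR), to 0.78 of the control level. At 3 hr it had 86.5, 92.6 and 87.2 CPM in controls and 56.7, 67.3 and 57.8 CPM after LTP, 0.693 of the control level (log2 -0.53, SE 0.0757, adjusted p = 0.00953 by edgeR). The per-animal log2 ratios were -0.25, -0.38 and -0.47 at 1 hr and -0.61, -0.46 and -0.59 at 3 hr. At 1 hr Klf10 was 1 of 2 genes called lower among all genes tested. That call was lost without control replicate 1 (-0.40, adjusted p = 0.257) or control replicate 3 (-0.32, 0.549), each of which leaves a single control library whose spread is taken from the other group. With the set-aside library included it was kept (-0.35, adjusted p = 0.0502), but with an animal block as well it was lost (-0.35, adjusted p = 0.228). The 3 hr call held in all 14 alternatives.

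**Figure D2:**
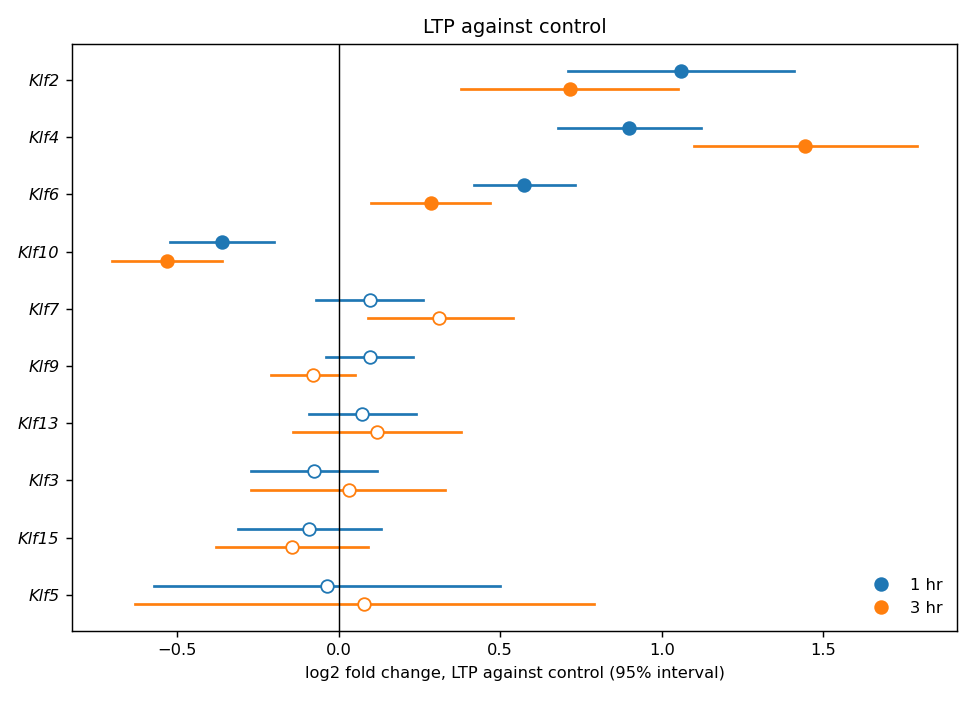
Log2 fold change of each Kruppel-like factor, LTP against control slices, at 1 hr (blue) and 3 hr (orange), with 95% intervals from the edgeR fit. Filled points were called and open points were not. Klf2, Klf4 and Klf6 lie to the right of 0 and Klf10 to the left at both times, and the interval of Klf5 is the widest.

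Including the library set aside changed the 1 hr values of the called members little. The log2 fold changes were then 1.02 for Klf2, 0.89 for Klf4, 0.56 for Klf6 and -0.35 for Klf10, and the same 4 members were called. Groups that do not overlap are common in these tables. At 1 hr Klf2, Klf4, Klf6, Klf7 and Klf9 had all LTP libraries above the fitted controls and Klf10 had all below, which makes 6 of 10 members against 22.7% of all genes. At 3 hr this held for Klf2, Klf4, Klf6 and Klf7 above and Klf10 below, 5 of 10 against 27.1%.

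Klf7, an activator needed for the growth of some sensory and hippocampal axons, was not called at either time. At 3 hr it had 39.2, 41.5 and 40.4 CPM in controls and 46.2, 44.8 and 57.2 CPM after LTP. The 3 LTP libraries lay above the controls, LTP replicate 3 farthest. The log2 fold change was 0.31 (SE 0.0992) with an adjusted p of 0.124 by edgeR. With the animal as a block it was 0.30 with an adjusted p of 0.0707, which passes the threshold. DESeq2 (0.31, adjusted p = 0.0575) and the model of all 4 groups (0.31, adjusted p = 0.0561) also called it, as did the fit without LTP replicate 2 (0.38, adjusted p = 0.032). Without LTP replicate 3 the log2 value was 0.18. At 1 hr Klf7 had 43.2 and 39.8 CPM in controls, 39.3 in the library set aside, and 44.3, 43.3 and 44.3 CPM after LTP (log2 0.10, SE 0.0768, adjusted p = 0.92). Of its exonic bases, 39.4% are shared with 2 genes on the opposite strand, which had at most 2 counts in any library.

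Klf9, the member with the highest RPKM, encodes a repressor that rises with stress hormones and during neuronal maturation. It had 349 and 356 CPM in the 1 hr controls, 321 in the library set aside, and 375, 375 and 371 CPM after LTP. At 3 hr it had 306, 313 and 302 CPM in controls and 302, 285 and 271 CPM after LTP. The differences were small, with log2 fold changes of 0.10 (SE 0.063, adjusted p = 0.89) at 1 hr and -0.08 (SE 0.059, adjusted p = 0.484) at 3 hr by edgeR. The 95% intervals, -0.04 to 0.23 and -0.21 to 0.05, leave out changes as large as those of Klf6 at 1 hr. The level of Klf9 differed more between the time points than between LTP and control slices.

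Klf13, a relative of Klf9, had 118 and 116 CPM in the 1 hr controls, 117 in the library set aside, and 127, 110.2 and 129 CPM after LTP. At 3 hr it had 170.4, 171 and 175 CPM in controls and 188, 151 and 214 CPM after LTP. The 3 hr LTP libraries spread on both sides of the tight controls. Its log2 fold changes with LTP were 0.07 (SE 0.0761) and 0.12 (SE 0.113), neither called.

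Klf3, which recruits CtBP, had 22.4 and 20.8 CPM in the 1 hr controls, 19.5 in the library set aside, and from 19.2 to 21.7 CPM after LTP. At 3 hr it had 16.6, 17.9 and 18.7 CPM in controls and 17.7, 14.6 and 21.3 after LTP. Its ranges overlapped at both times, with log2 fold changes of -0.07 and 0.03. An antisense gene, Gm20033, covers 3.59% of its exonic bases. Klf15, a glucocorticoid target known from metabolism and astrocytes, lay between 15.1 and 21.7 CPM in all 12 libraries, with log2 fold changes of -0.09 (SE 0.101) and -0.14 (SE 0.103). Klf5, an activator of epithelial and smooth muscle cells, lay between 1.2 and 2.57 CPM. Its log2 fold changes were -0.04 (SE 0.248) and 0.08 (SE 0.314), and the 3 hr interval of -0.63 to 0.79 does not exclude a change of the size seen in Klf2.

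**Figure D3:**
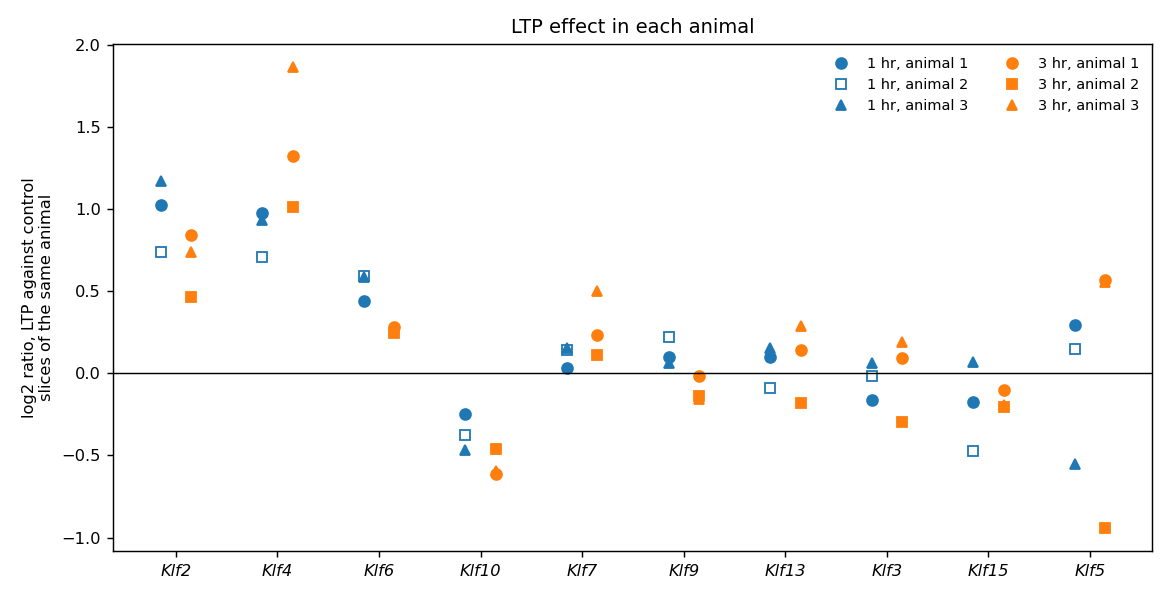
Log2 ratio of CPM (pseudocount 0.1 CPM) between LTP and control slices of the same animal, for animals 1 (circles), 2 (squares) and 3 (triangles) at 1 hr (blue) and 3 hr (orange); open squares use the control library set aside. All 6 ratios are above 0 for Klf2, Klf4, Klf6 and Klf7 and below 0 for Klf10, and the 3 ratios of Klf9 are above 0 at 1 hr and below 0 at 3 hr.

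Whether the LTP effect differed between 1 hr and 3 hr was tested as an interaction in 1 model of the 4 groups. None of the 10 members was called by edgeR, against 0.0592% of 18584 genes, and DESeq2 and limma-voom called 0 as well. An unadjusted p under 0.05 was found for 2 members, against 6.59% of all genes. The effect on Klf4 was larger at 3 hr by 0.55 (SE 0.205, 95% interval 0.11 to 0.99, unadjusted p = 0.0174, adjusted p = 0.637). The effect on Klf6 was smaller at 3 hr by a log2 difference of -0.28 (SE 0.113, interval -0.52 to -0.04, unadjusted p = 0.0268, adjusted p = 0.685). The difference was -0.34 for Klf2 (interval -0.81 to 0.14) and -0.16 for Klf10 (interval -0.39 to 0.07).

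The 3 hr and 1 hr slices were also compared within each treatment, where time and animal cannot be told apart. In control slices Klf2 and Klf13 rose, 2 of the 10 members, against 16.1% of all genes called higher. Klf3 fell, 1 of 10, against 16.8% called lower. An unadjusted p under 0.05 was found for 4 members, against 42.1% of all genes. These counts are near the shares over all genes, and the values below describe single members. Klf13 rose by 0.52 on the log2 scale (SE 0.116, adjusted p = 0.00471 by edgeR), from 117 ± 1.59 CPM (n = 2) to 172 ± 2.45 (n = 3), with no overlap. Klf2 rose by 0.66 (SE 0.171, adjusted p = 0.0104). Klf3 fell by 0.33 (log2 -0.33, SE 0.13, adjusted p = 0.0716), but the call was lost in 8 of 17 alternatives, among them the fit with the set-aside library (-0.25, adjusted p = 0.132). Klf9 was lower, from 353 ± 4.53 to 307 ± 5.65 CPM (log2 -0.24, SE 0.0612, adjusted p = 0.00897), a change under the fold minimum and so not called. Without 1 hr control replicate 3 it was -0.19 (adjusted p = 0.126).

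Cell markers moved in the same comparison. In control slices edgeR called 5 of 9 endothelial, 5 of 8 mural and 6 of 7 microglia markers lower at 3 hr, against 16.8% of all genes, with list medians of -0.32, -0.40 and -0.59 on the log2 scale. Of the 6 neuron markers 3 were lower, Neurod6 (log2 -1.10, SE 0.12, adjusted p = 6.9e-05), Snap25 (-0.51) and Syt1 (-0.30), as were 1 of 6 astrocyte and 1 of 4 dentate granule markers. Called higher, against 16.1% of all genes, were 3 of 6 oligodendrocyte lineage markers, 3 of 5 CA1 and CA3 pyramidal markers and 1 mural marker. In LTP slices, where 18.6% of all genes were called higher and 17.3% lower, 3 endothelial markers were higher and 3 lower, 2 mural markers were higher and 3 lower, and 6 microglia, 2 neuron and 1 astrocyte markers were lower. There too 3 oligodendrocyte lineage and 3 pyramidal markers were higher. Choroid plexus markers had 0 calls in either comparison by edgeR or DESeq2 and 0 at an unadjusted p under 0.05. The part of these markers in the changes of the members with time was not tested.

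In LTP slices Klf2, Klf4 and Klf13 rose from 1 hr to 3 hr, 3 of 10 members against 18.6% of all genes, and Klf9 fell, 1 of 10 against 17.3%. An unadjusted p under 0.05 was found for 5 members, against 46.2% of all genes. Whether the members differ from other genes here was not tested. Klf13 rose by 0.57 (SE 0.102, adjusted p = 0.000931 by edgeR). Klf9 fell from 374 ± 1.86 to 286 ± 15.5 CPM (log2 -0.41, SE 0.0551, adjusted p = 0.000137), with all 3 libraries of 3 hr below all of 1 hr. Klf2 rose by 0.33 (SE 0.139, adjusted p = 0.0826) and Klf4 by 0.35 (SE 0.134, adjusted p = 0.0552). Neither rise was firm. The Klf4 call was lost without 1 hr LTP replicate 2 (0.31, adjusted p = 0.143) or 3 hr LTP replicate 3 (0.16, 0.254). The Klf2 call was lost with limma-voom (0.31, adjusted p = 0.101) and in 4 of the fits without 1 library, namely 1 hr LTP replicate 1 (0.36, 0.113) or 2 (0.28, 0.197) and 3 hr LTP replicate 1 (0.35, 0.123) or 3 (0.20, 0.312). Klf13 and Klf9 kept their calls in all alternatives. Klf6 was lower by less than the fold minimum (log2 -0.21, SE 0.075, adjusted p = 0.0384) and was called only without 3 hr LTP replicate 2 (-0.28, adjusted p = 0.00844). Both comparisons in time share libraries with the LTP comparisons.

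**Figure D4:**
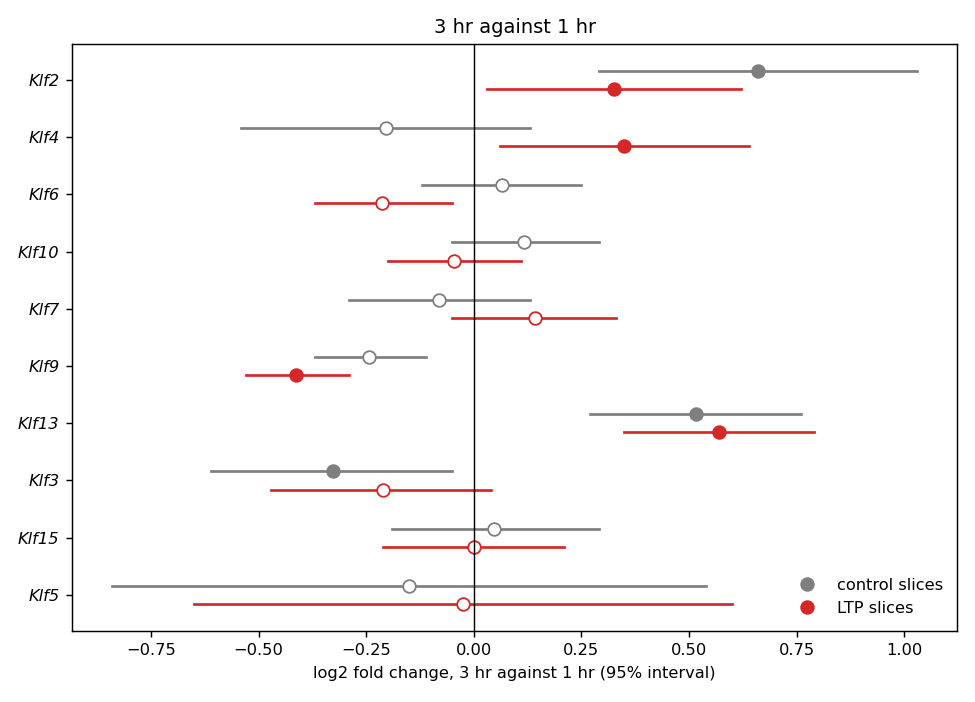
Log2 fold change of each Kruppel-like factor, 3 hr against 1 hr, in control slices (grey) and LTP slices (red), with 95% intervals from the edgeR fit of 11 libraries. Filled points were called and open points were not; Klf13 lies to the right of 0 in both and Klf9 to the left in both.

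Across the 12 libraries some members followed each other, which is described here without a test since the libraries share treatment and time. On log2(CPM + 0.1), Klf4 and Klf10 had a Pearson r of -0.921, Klf4 and Klf7 of 0.844, Klf2 and Klf4 of 0.819, and Klf9 and Klf13 of -0.835. Of 18583 other genes, those with patterns most like Klf2 were Egr4 (r = 0.977), Ier2 (0.971) and Dpm1 (0.968). The nearest to Klf4 were Rasl11a (0.953), Nr4a2 (0.946) and Egr1 (0.944). Those nearest to Klf6 were Egr2 (0.962), Errfi1 (0.953) and Rgs2 (0.952). Egr1, Egr2, Egr4, Ier2 and Nr4a2 are immediate early genes. Klf10 was nearest to Zkscan14 (0.923), Chrac1 (0.920) and Cipc (0.913), genes that are not of that class.

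Of the 7 other KLF genes, 4 were tested at each time and 0 were called by edgeR or DESeq2, with 1 at an unadjusted p under 0.05 at each time. Over all genes 6.71% were under 0.05 in this way at 1 hr and 20.2% at 3 hr, and the unadjusted counts of the lists below are to be read beside these shares. Klf11, a close relative of Klf10, had 9.32 ± 0.39 CPM (n = 2) in 1 hr controls and 11.7 ± 0.875 (n = 3) after LTP (log2 0.33, adjusted p = 0.493). Of the 5 tested in time, 2 were called higher in control slices at 3 hr, against 16.1% of all genes, and 1 lower, against 16.8%. There Klf16 was higher at 3 hr than at 1 hr by 0.88 (SE 0.0948, adjusted p = 6.51e-05) and Klf11 by 0.46 (SE 0.111, adjusted p = 0.00706), while Klf12 fell by 0.62 (log2 -0.62, SE 0.138, adjusted p = 0.00454). In LTP slices Klf16 alone was called, higher by 0.64 (SE 0.083, adjusted p = 0.000108), and the log2 values were 0.03 for Klf11 (adjusted p = 0.83) and -0.25 for Klf12 (adjusted p = 0.13). Klf1, Klf14 and Klf17 were low. Klf17 was below the floor of 3 counts in the fitted libraries, Klf1 had at most 0.183 CPM, and Klf14, which passed the filter for the comparisons in time, had at most 0.341 CPM, in 3 hr LTP slices. Among the 9 Sp factors, which share the zinc fingers of the KLFs, 1 rose at 3 hr, against 5.07% of all genes, and 0 at 1 hr, against 0.778%. A count of 1 is near the share at 3 hr. The gene called was Sp7, known as osterix from bone, at 4.89 ± 0.499 and 8.43 ± 0.386 CPM (n = 3 each, log2 0.81, SE 0.102, adjusted p = 0.00572 by edgeR). DESeq2 called 2 Sp factors at 3 hr and 0 at 1 hr, and 1 had an unadjusted p under 0.05 at 1 hr.

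Of 13 corepressors, coactivators and modifiers of KLF proteins, 2 rose with LTP at 3 hr, against 5.07% of all genes, the acetyltransferases Ep300 (log2 0.62, SE 0.0851, adjusted p = 0.00837) and Crebbp (0.48, SE 0.127, adjusted p = 0.0771). At 1 hr 0 were called by edgeR or DESeq2, with 2 at an unadjusted p under 0.05. Sin3a, Sin3b, Ctbp1 and Ctbp2, the corepressors of the KLF classes, were not called in either LTP comparison. Among 7 genes of the MEK5, ERK5 and MEF2 path, 0 were called by edgeR at either time, with 0 and 2 at an unadjusted p under 0.05, and DESeq2 called 0 and 1. The median log2 fold change of that list was 0.09 at 1 hr and 0.12 at 3 hr, beside 0 over all genes. Mef2d had a log2 fold change of 0.37 at 3 hr (SE 0.127, adjusted p = 0.145).

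The receptors that induce Klf9, Nr3c1, Nr3c2, Thra and Thrb, were not called with LTP at either time by edgeR or DESeq2, and 0 had an unadjusted p under 0.05. Of 12 glucocorticoid-responsive genes, 3 rose with LTP at 1 hr, against 0.778% of all genes, Dusp1 (1.40, SE 0.0904, adjusted p = 4.4e-07), Per1 (0.57, SE 0.0941, adjusted p = 0.00749) and Sgk1 (0.54, SE 0.0934, adjusted p = 0.0108). Dusp1 and Per1 are also immediate early genes, and they were the 2 of 12 called by edgeR at 3 hr, against 5.07% of all genes, where DESeq2 called 3. Among the genes not called, Fkbp5 had log2 values of -0.08 and -0.02 and Zbtb16 of -0.03 and 0.38 at 1 hr and 3 hr. The part of glucocorticoids in these values was not tested. From 1 hr to 3 hr in control slices Klf9 was lower but not called. There 1 of the 4 receptors, Nr3c2, which encodes the mineralocorticoid receptor, was called lower (log2 -0.34, SE 0.0822, adjusted p = 0.00708), against 16.8% of all genes. Of the 12 responsive genes 5 were called higher, against 16.1% of all genes, and 0 lower. They were Per1 (0.33), Ddit4 (0.62), Pdk4 (0.52), Plin4 (1.22) and Mt2 (0.82). Fkbp5 (-0.05) and Zbtb16 (0.05) were among those not called. In LTP slices, where Klf9 was called lower, 7 of the 12 were called higher at 3 hr and 1 lower, Dusp1 (-0.51). Over all genes 18.6% were called higher and 17.3% lower there. Nr3c2 was called lower in LTP slices too (-0.32). Of the 10 TGF-beta genes around Klf10, Smad7, an inhibitor of the pathway, was the 1 that rose at 1 hr, against 0.778% of all genes (0.61, SE 0.0933, adjusted p = 0.00368). At 3 hr edgeR and DESeq2 called 0 of these, and 1 had an unadjusted p under 0.05.

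Of 8 endothelial genes under KLF2 and KLF4, 1 rose with LTP, the protease gene Adamts1, by 0.48 at 1 hr (SE 0.0665, adjusted p = 0.00168) and 0.37 at 3 hr (SE 0.0654, adjusted p = 0.023). Over all genes 0.778% and 5.07% were called higher at these times. In 1 hr controls Adamts1 had 166 ± 3.37 CPM (n = 2), above the 135 to 139 CPM to which the 9 endothelial markers summed. Which cells held its RNA was not tested. Nos3 and Thbd, genes that KLF2 is known to induce in vessels, were not called with LTP. In 1 hr controls and LTP slices Nos3 had 6.57 ± 0.476 (n = 2) and 5.19 ± 0.496 CPM (n = 3). From 1 hr to 3 hr in controls, 6 of the 8 rose, against 16.1% of all genes, Nos3 by 0.34, Thbd by 0.38, Edn1 by 0.64, Icam1 by 0.72, Sele by 1.87 and Adamts1 by 0.58 on the log2 scale. The list mixes directions, since KLF2 is known to induce Nos3 and Thbd but to repress Edn1 and Sele, so the count is not one of genes moving as KLF2 would drive them. In the same comparison 5 of 9 endothelial markers were called lower and 0 higher.

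Vessel cells are known to hold much of the Klf2 and Klf4 RNA of many tissues, but which cells held it in these slices was not measured. Markers of vessel cells were not called higher with LTP. The 9 endothelial markers summed to between 135 and 139 CPM in the 2 fitted 1 hr controls (129 in the library set aside) and 112 and 120 CPM after LTP at 1 hr, and to between 105 and 111 and between 104 and 121 CPM at 3 hr. By edgeR and DESeq2, 0 of 9 were called at either time, 3 had an unadjusted p under 0.05 at 1 hr and 1 at 3 hr, and the list's median log2 fold change was -0.21 and 0.04. The 8 mural markers summed to between 210 and 213 CPM in the fitted 1 hr controls (207 in the library set aside) and 180 and 197 after LTP, and Myh11 was called lower at 1 hr by edgeR (log2 -0.68, SE 0.142, adjusted p = 0.0465), 1 of 8 against 0.0113% of all genes, where DESeq2 called 2. They summed to between 166 and 172 CPM in 3 hr controls and 160 and 165 after LTP. Of 7 microglia markers, 0 were called with LTP by edgeR or DESeq2, and 0 had an unadjusted p under 0.05. They summed to between 272 and 285 CPM in the fitted 1 hr controls (257 in the library set aside) and 265 and 282 after LTP. At 3 hr the sums were between 193 and 223 CPM in controls and 178 and 205 after LTP. Astrocyte, oligodendrocyte, neuron, CA1 and CA3 pyramidal, dentate granule and choroid plexus markers had 0 calls with LTP by edgeR. DESeq2 called 1 of the 6 astrocyte markers at 3 hr and 0 markers of these other lists at either time. Of the 6 oligodendrocyte lineage markers, 3 had an unadjusted p under 0.05 at 1 hr, with a list median of 0.19, and their sums were between 4570 and 5550 CPM in the fitted controls and 5370 and 6390 CPM after LTP. The part of any of these cell types, vessel cells included, in the Kruppel-like factor values was not tested. The labelled tissue was checked from its neuron markers, of which Camk2a was at 1660 ± 77.2 CPM in 1 hr controls (n = 2). Dentate granule markers remained despite the trimming, summing to between 120 and 222 CPM over the 11 libraries fitted. Their spread was wide in LTP slices, between 133 and 222 CPM at 3 hr, and its part in the Kruppel-like factor values was not tested.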

How the data were processed

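Total RNA of 12 slice libraries was sequenced with a stranded kit after removal of ribosomal RNA. The authors aligned the reads with STAR to GRCm38 (mm10) and deposited raw counts per gene, 1 table per time point. The study states that expression was analysed from coding-region reads alone, but the tables also list non-coding genes. Whether strand was used in counting is not given in the sources used here. The submitters' processing notes name DESeq2. Of the 41091 gene IDs, 40217 matched GENCODE M21 and 874 did not, and these stayed in the tests. Positions and lengths came from that annotation, which was made for GRCm38.

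In R 4.3.3, low counts were removed with filterByExpr, TMM factors were computed, and edgeR 4.0.16 gave quasi-likelihood tests with Benjamini-Hochberg adjustment over all genes tested. Calls needed a fold change over 1.2 and an adjusted p under 0.1, as in the study. Separate fits were made at 1 hr (5 libraries) and 3 hr (6). The interaction, for which no fold minimum was set, and the time comparisons came from 1 model of the 4 groups (11 libraries). Means are given ± SD, SE is that of a log2 fold change, and intervals are 95%. RPKM was CPM per kilobase of exon. Alternatives were DESeq2 1.42.0, limma-voom (limma 3.58.1), other scalings, no filter, a stricter threshold, other sets of libraries and an animal block. The scripts were tested on simulated data.

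The labels give the animal, which pairs LTP and control slices within a time point. The deviations of paired libraries from their group means correlated across genes at -0.016, -0.155 and 0.071 for animals 1, 2 and 3 at 1 hr and at 0.036, -0.027 and 0.212 at 3 hr. Replicates of a group differed by more than counting error in every pair (chi-square per degree of freedom from 9.49 to 85.6). The highest value was that of 3 hr LTP replicates 2 and 3, which were both fitted. The pairs with the library set aside had 47 and 63.3. The p-values measure the spread between these animals.

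All 10 members were named. Other genes came from lists of relatives, partners, upstream genes, downstream genes and cell type markers, from the nearest patterns, or from overlap with a member. Not every called list gene was named, and some list members were chosen after their values were seen. The members and lists were chosen with earlier results of these data known. The 3 nearest patterns were taken for each member called with LTP, by Pearson r over 12 libraries.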

Additional observations from a re-analysis of the deposited data

Results flagged for a closer look

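Klf9, which encodes a hormone-responsive repressor, had ratios above 0 in all 3 animals of the 1 hr set and below 0 in all 3 animals of the 3 hr set. At 1 hr the log2 ratio of LTP to control slices was 0.10 in animal 1, 0.22 in animal 2 and 0.06 in animal 3. The 3 hr ratios were -0.02, -0.14 and -0.15. This pattern of signs is what flagged Klf9 among the members, and the share of all genes that show it was not counted. The interaction of LTP and time was -0.169 on the log2 scale, 3 hr minus 1 hr (SE 0.0827, 95% interval -0.35 to 0.01), with an unadjusted p of 0.0597 and an adjusted p of 0.777 by edgeR. With 1 hr control replicate 2 included it was -0.23 (adjusted p = 0.624). The ratio of animal 2 at 1 hr uses that library.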

How the results depend on the processing

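At 1 hr 3 or 4 of the 10 members were called in all 15 alternatives, and 4 in the main fit. At 3 hr the 4 calls became between 2 and 4 when 1 library was left out, with 2, Klf4 and Klf10, without control replicate 1, control replicate 2 or LTP replicate 1, where fewer samples were fitted. The interaction called 0 members in all 19 alternatives, and the control slices in time 2 or 3 in all 17. The 4 calls of LTP slices in time became between 2 and 5 when 1 library was left out, with 2 without 1 hr LTP replicate 2. With the animal as a replicate block 4 members were called at 1 hr, 3 with 1 hr control replicate 2 as well, 5 at 3 hr and 0 in the interaction. The block changed no call other than those of Klf7 and Klf10 given in the report, and no paired analysis was possible between the time points because they were taken to be different animals. Alternatives were computed for all 10 members in the LTP comparisons, for 5 in the interaction and for those with an adjusted p under 0.1 in time. Among these, signs changed for 4 uncalled members in the LTP comparisons, when 1 library was left out. The log2 fold change then ran from -0.17 to 0.15 for Klf5 and from -0.183 to 0.005 for Klf15 at 1 hr, and at 3 hr from -0.13 to 0.17 for Klf3, from -0.22 to 0.37 for Klf5 and from -0.015 to 0.251 for Klf13. At the stricter adjusted p of 0.05, 3 members were called at 3 hr, without Klf6. Klf5, with 55 to 112 counts per library, had the lowest counts of the members and the widest intervals in the LTP comparisons. Depth and spread between animals were not separated as sources of that width. The intervals cover these libraries only.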
